A study of Homo sapiens with 12 samples.

Results

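Newly made RNA was set against elongating RNA polymerase II along 12973 transcriptional units of at least 5 kb, of 21874 units that the authors segmented in the human leukaemia line K562. All units of that length were taken, with no choice by signal, and 7656 of them are in the authors' mRNA class. TT-Seq, in 2 libraries, reads the RNA that cells made during a 5 min pulse of 500 µM 4-thiouridine, sheared by sonication and then purified by its label. S2P ChIP, also in 2 libraries, reads the DNA under polymerase phosphorylated at serine 2 (antibody 3E10) in cells fixed for 7.5 min in 1% formaldehyde. K562 is an established erythroleukaemia line, grown here at low passage, and apart from the labelling pulse no treatment is given. The units are the authors' own segments of TT-Seq signal, so a gene without TT-Seq signal has no unit and cannot appear as high in S2P ChIP. TT-Seq was counted on the strand of the unit and S2P ChIP without strand, so ChIP signal of an overlapping unit on the other strand enters as well.

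RNA polymerase II carries a long C-terminal tail of repeated heptads that is phosphorylated as transcription proceeds. Serine 2 of the heptad is phosphorylated by the kinases of productive elongation, among them P-TEFb, and this form builds up along the gene towards the 3' end, where cleavage and polyadenylation factors bind. ChIP of this form counts polymerase on DNA at one moment, and a slow polymerase counts for longer, while pulse-labelled RNA counts how much RNA passed through in the labelling time.

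Values below are densities, in counts per kb of region and per 1000000 binned counts of the library. The binned counts summed to 68913035 and 71317148 in TT-Seq and to 73660126 and 34470652 in S2P ChIP. In bins at least 10 kb from any unit the mean density was 0.0147 to 0.0174 per strand in TT-Seq and 0.138 and 0.1208 in S2P ChIP, a higher floor in the ChIP. The body runs from 1 kb after the start of a unit to its 3' end and includes the last 5 kb. Of 46 erythroid genes 30 had a unit of this length, with a median TT-Seq body density of 1.51. Of 31 markers of other cell types 6 had one, with a median of 0.722. Among these 6 were KRT19 with 2.01 and 1.91 and CD3D with 0.245 and 0.164. The design text calls the RNA libraries biological duplicates. Nothing says so of the ChIP libraries, so p-values measure the spread between these 4 libraries, which may be technical.

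Across mRNA class bodies the ranking of units by TT-Seq bore almost no relation to their ranking by S2P ChIP. Spearman's rho between a TT-Seq and an S2P library lay between 0.004 and 0.052 in the 4 pairs, whereas the 2 TT-Seq libraries ranked the units alike (rho 0.997), as did the 2 S2P libraries (0.984). In the last 5 kb the same pairs gave 0.279 to 0.317. TT-Seq ranked bodies much as sheared total RNA did (0.835 to 0.852 with Total RNA-Frag-Seq). S2P ChIP ranked them much as did ChIP with the polymerase antibody N-20 (0.95 to 0.955), which TT-Seq did not follow (-0.079 to -0.028). These correlations are across 7656 units that share libraries and depth but differ in promoter GC content, and they describe these libraries only.

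The relation differed by class. Bodies of lincRNA units gave the lowest rho, -0.039 to 0.024, and those of upstream antisense RNA (uaRNA) and of units without a class the highest, 0.248 to 0.316 and 0.243 to 0.299. Enhancer RNA (eRNA) bodies gave 0.181 to 0.256, antisense RNA (asRNA) bodies 0.187 to 0.227, convergent RNA (conRNA) bodies 0.21 to 0.246 and short intergenic (sincRNA) bodies 0.163 to 0.212. All classes together gave 0.109 to 0.147.

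**Figure D1:**
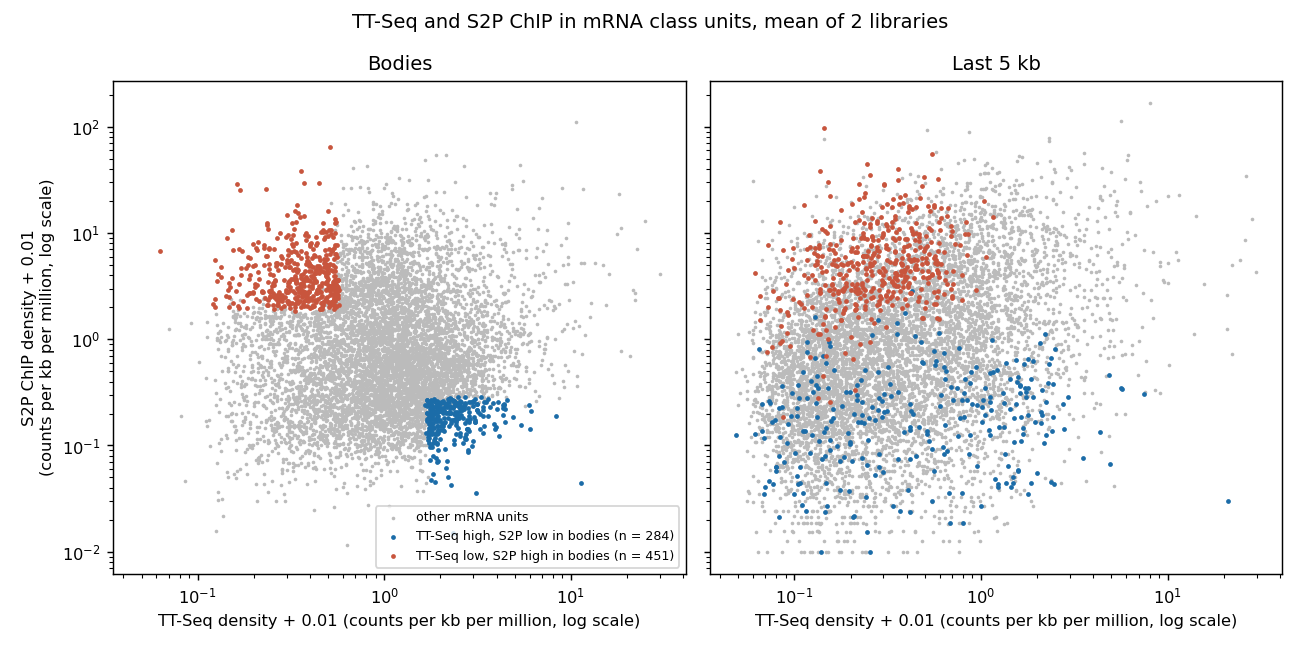
TT-Seq density (horizontal, log scale, 0.01 added) against S2P ChIP density (vertical, log scale, 0.01 added) of 7656 mRNA class units, each point the mean of 2 libraries, in bodies (left) and the last 5 kb (right). Blue marks 284 units high in TT-Seq and low in S2P ChIP by their bodies and red the 451 units with the opposite pattern; the cloud of bodies has no slope, and in the last 5 kb, which are part of the body, most red units lie above the blue ones.

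In level, mRNA bodies had a median density of 1.01 and 1.02 in TT-Seq and of 0.674 and 0.61 in S2P ChIP. In their last 5 kb the medians were 0.313 and 0.303 in TT-Seq and 0.842 and 0.696 in S2P ChIP. The RNA signal was thus lower and the ChIP signal higher near the 3' end than over the whole body. Sheared total RNA (Total RNA-Frag-Seq) was lower there as well, with medians of 1.02 and 1.01 in bodies and 0.227 and 0.216 in the last 5 kb. How much of that window lies past the mature mRNA was not tested. Among the other classes, lincRNA bodies had 0.468 and 0.468 in TT-Seq and 0.347 and 0.345 in S2P ChIP, and eRNA bodies 0.3 and 0.308 in TT-Seq and 0.585 and 0.536 in S2P ChIP. asRNA bodies, like those of conRNA, uaRNA and unclassified units, also had a higher density in S2P ChIP than in TT-Seq. In asRNA these were 0.4 and 0.396 in TT-Seq and 0.778 and 0.837 in S2P ChIP. Each density is scaled to its own library, so these levels give no amount of RNA against polymerase.

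**Figure D2:**
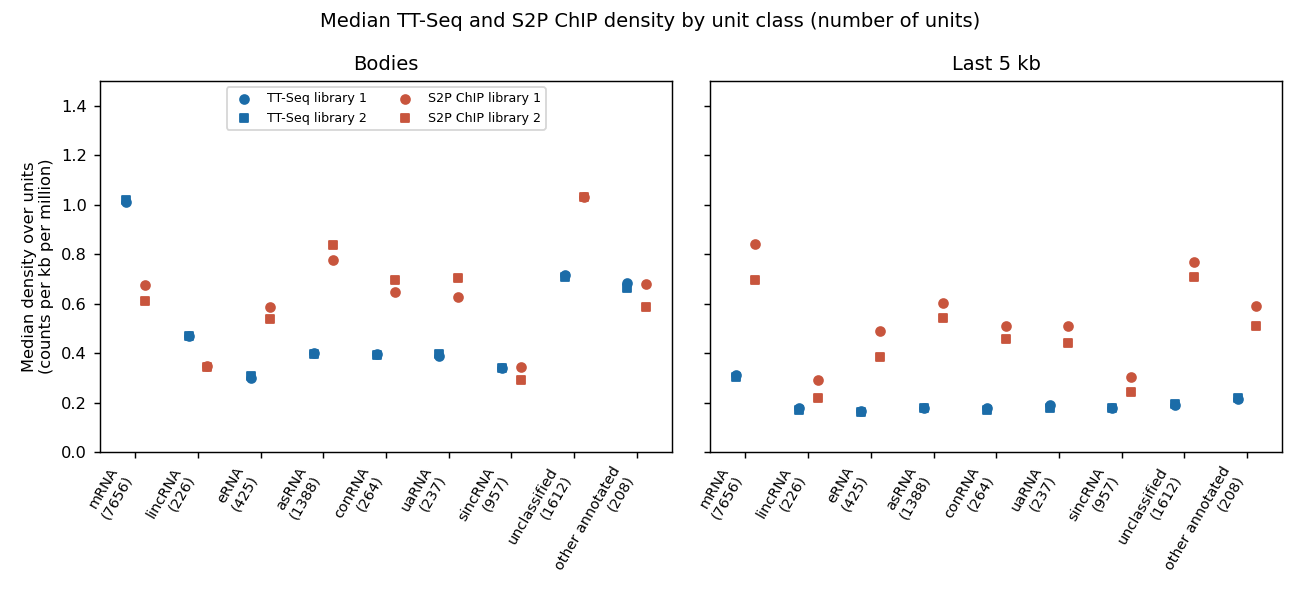
Median density over units of each class in bodies (left) and the last 5 kb (right), TT-Seq in blue left of S2P ChIP in red, 1 symbol per library, with the number of units in brackets. In bodies the TT-Seq medians of mRNA units, 1.01 and 1.02, stand above their S2P medians, and in the last 5 kb the S2P medians are the higher ones in every class plotted.

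The test in edgeR compared TT-Seq with S2P ChIP in each body after scaling that sets the bulk of units to equal (median log2 TT-Seq over S2P ChIP of -0.04 over all units), so a call says that a unit's ratio differs from the bulk. By the quasi-likelihood test at an adjusted p of 0.05, 42.7% of the 12973 bodies were higher in TT-Seq and 43.6% lower (5534 and 5650 units). A call in either direction was made in 86.2% of bodies, and in 93.7% the densities of the 2 assays did not overlap. A call is therefore the usual state of a body, and the sizes and the share in each direction carry the comparison. In the mRNA class 51.5% were higher and 37.1% lower, with a median log2 of 0.50. lincRNA bodies had 49.1% higher and 36.3% lower with a median of 0.38. The share of lower bodies was 57.4% in eRNA (median -1.04), 59.9% in asRNA (-1.16), 54.9% in conRNA (-0.92), 56.5% in uaRNA (-0.98) and 55.5% in unclassified units (-0.83). sincRNA bodies, with a median of 0, and other annotated bodies, with -0.19, take their sign from the scaling, since totals without TMM move the median of all units to 0.18.

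By quartiles within the mRNA class, 284 bodies (3.71%) were high in TT-Seq and low in S2P ChIP, and 451 (5.89%) were low in TT-Seq and high in S2P ChIP. High means at or above the 75th percentile in both libraries of the assay (1.65 and 1.65 in TT-Seq, 1.84 and 1.81 in S2P ChIP), and low at or below the 25th (0.568 and 0.573 in TT-Seq, 0.295 and 0.26 in S2P ChIP). Both assays were high in 371 bodies (4.85%) and both low in 513 (6.7%). Since the bodies' values chose these sets, the values are a description and were not tested. Just inside the first set lay NHLRC2 (TT-Seq 1.73 and 1.65, S2P ChIP 0.177 and 0.204) and just outside it TAX1BP1 (1.71 and 1.65, 0.177 and 0.148). At the edge of the second set TST lay inside (TT-Seq 0.567 and 0.541, S2P ChIP 3.84 and 3.3) and MNX1 outside (0.223 and 0.212, 1.84 and 3.18).

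Upstream sequences of 4 of the most discordant genes are given here as examples that differ in CG dinucleotides. The first pair is high in TT-Seq and low in S2P ChIP and the second pair the reverse. The 4 were picked: MST1, with a lower ratio than PAQR4, is not among them. Each is the 250 bases before the annotated start, from RefSeq on GRCh38.p14, read 5' to 3' on the strand of the gene, with CG in capitals. ITM2A lies at chrX:79367335-79367584 on the minus strand, ZNF330 at chr4:141220645-141220894 on the plus strand, AGPAT2 at chr9:136687458-136687707 on the minus strand and PAQR4 at chr16:2969098-2969347 on the plus strand.
ITM2A: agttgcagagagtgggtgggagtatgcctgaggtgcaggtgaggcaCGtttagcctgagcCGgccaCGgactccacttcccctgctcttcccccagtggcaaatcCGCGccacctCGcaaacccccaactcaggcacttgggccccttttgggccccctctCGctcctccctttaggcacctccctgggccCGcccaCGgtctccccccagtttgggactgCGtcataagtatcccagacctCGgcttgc
ZNF330: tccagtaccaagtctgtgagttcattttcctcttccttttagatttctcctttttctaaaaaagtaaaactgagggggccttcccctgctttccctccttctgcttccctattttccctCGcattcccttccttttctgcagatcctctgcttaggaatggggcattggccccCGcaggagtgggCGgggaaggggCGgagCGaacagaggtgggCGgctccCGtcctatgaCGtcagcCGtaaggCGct
AGPAT2: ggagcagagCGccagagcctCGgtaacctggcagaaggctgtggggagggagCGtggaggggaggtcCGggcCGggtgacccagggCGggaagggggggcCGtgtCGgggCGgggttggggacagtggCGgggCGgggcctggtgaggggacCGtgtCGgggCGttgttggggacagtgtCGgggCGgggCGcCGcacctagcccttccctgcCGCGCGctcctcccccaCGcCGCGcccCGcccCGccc
PAQR4: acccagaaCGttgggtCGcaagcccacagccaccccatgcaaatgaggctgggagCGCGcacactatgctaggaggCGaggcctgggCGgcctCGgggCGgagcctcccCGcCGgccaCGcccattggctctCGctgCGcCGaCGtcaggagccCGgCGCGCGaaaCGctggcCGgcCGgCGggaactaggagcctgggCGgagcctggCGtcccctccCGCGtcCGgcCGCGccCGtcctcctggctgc
The motif searched was CG, which reads the same on both strands. It occurred 11 times in the ITM2A sequence (GC content 64.0%), 10 times in ZNF330 (54.0%), 26 times in AGPAT2 (77.6%) and 31 times in PAQR4 (74.4%). Of 35116 promoters of the same length in that RefSeq set, 93.9% hold at least 1, with a median of 11, and of 8405 promoters of named mRNA units 98.8% do, with a median of 21. The first pair is thus below the number usual for mRNA units and the second pair above it, which describes these 4 picked genes and not their sets. Promoter GC was not compared between the sets, because only 72.1% of the second set had a promoter in the table, under the 80% needed. Over the 6242 mRNA units with one, promoter GC had a rho of -0.044 with TT-Seq and 0.2 with S2P ChIP in bodies.

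ITM2A, an integral membrane protein gene on the X chromosome (chrX:79355431-79367490, minus strand, hg38), had the highest ratio. Its body held TT-Seq densities of 2.43 and 2.21 and S2P densities of 0.00494 and 0.00527, the last resting on 4 and 2 counts. Its S2P values were below the mean of bins far from units, and no other unit lay within 1 Mb. The fitted log2 ratio was 8.59 (SE 0.23). ZNF330, a zinc finger gene whose protein is nucleolar, had 3.19 and 2.97 in TT-Seq and 0.0286 and 0.0229 in S2P ChIP (log2 6.65). EIF4A2, a translation initiation helicase whose introns host small nucleolar RNAs, had the strongest RNA signal of the named set: 8.46 and 8.15 in TT-Seq against 0.192 and 0.17 in S2P ChIP (log2 5.29), and it is wholly overlapped by units on the other strand.

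TIPARP, an ADP-ribosyltransferase gene induced by the aryl hydrocarbon receptor, had 5.38 and 5.36 in TT-Seq and 0.105 and 0.184 in S2P ChIP (log2 5.01). POLR1F, a subunit of RNA polymerase I, had 1.92 and 1.81 in TT-Seq and 0.0286 and 0.042 in S2P ChIP (log2 5.56). PLRG1, a component of the spliceosome, had 2.27 and 2.08 in TT-Seq and 0.0378 and 0.0441 in S2P ChIP (log2 5.54). RLIG1, an RNA ligase, ARRDC4, an arrestin family member, and DEPDC1 complete the named set with C11orf71, at log2 ratios of 5.94, 5.35, 5.20 and 5.50. That both TT-Seq libraries exceeded both S2P libraries in all 10 follows from the thresholds of the set. Relative to their level, the S2P libraries differed most in C11orf71, at 0.0118 and 0.0757. In 8 of the 10, all but EIF4A2 and TIPARP, both S2P values were below the means of bins far from units, so their ratios rest on ChIP signal under that level.

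In the opposite set AGPAT2, an acyltransferase of phospholipid and fat synthesis (chr9:136666503-136687404, minus strand, hg38), had 0.473 and 0.527 in TT-Seq and 82.3 and 45.8 in S2P ChIP (log2 -7.21, SE 0.36). Its 3' part lies across EGFL7 on the other strand, and TT-Seq on that strand had a density of 5.21 over the AGPAT2 body, above its own strand. PAQR4, a membrane receptor family gene, had 0.297 and 0.395 in TT-Seq and 47.4 and 29.5 in S2P ChIP (log2 -7.00), with 1.32 in TT-Seq on the other strand. MST1, which encodes macrophage-stimulating protein, had 0.0513 and 0.0547 in TT-Seq and 7.5 and 6.0 in S2P ChIP (log2 -7.20), with 0.79 on the other strand.

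TEDC1, a centriole protein gene, and IDUA, a lysosomal hydrolase gene, had no unit of the other strand over them. TEDC1 had 0.115 and 0.113 in TT-Seq and 6.39 and 4.74 in S2P ChIP (log2 -5.83), with 0.00163 in TT-Seq on the other strand. IDUA had 0.142 and 0.146 in TT-Seq and 6.27 and 7.45 in S2P ChIP (log2 -5.79), with 0.061 on the other strand. CTU2, a tRNA thiolation gene with no unit opposite but 1.09 in TT-Seq on the other strand, had 0.31 and 0.337 in TT-Seq and 15.5 and 16.7 in S2P ChIP (log2 -5.86). The remaining named members are EFEMP2, an elastic fibre protein gene, the DNA glycosylase gene NEIL1, CBARP and VPS9D1, at log2 ratios of -6.44, -5.81, -5.95 and -5.90. In these 4, as in 8 of the 10, TT-Seq was higher on the other strand than on their own, at 1.13 in EFEMP2, 0.744 in NEIL1, 0.352 in CBARP and 1.49 in VPS9D1. That no TT-Seq library of any of the 10 reached either of its S2P libraries follows from the thresholds of the set.

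**Figure D3:**
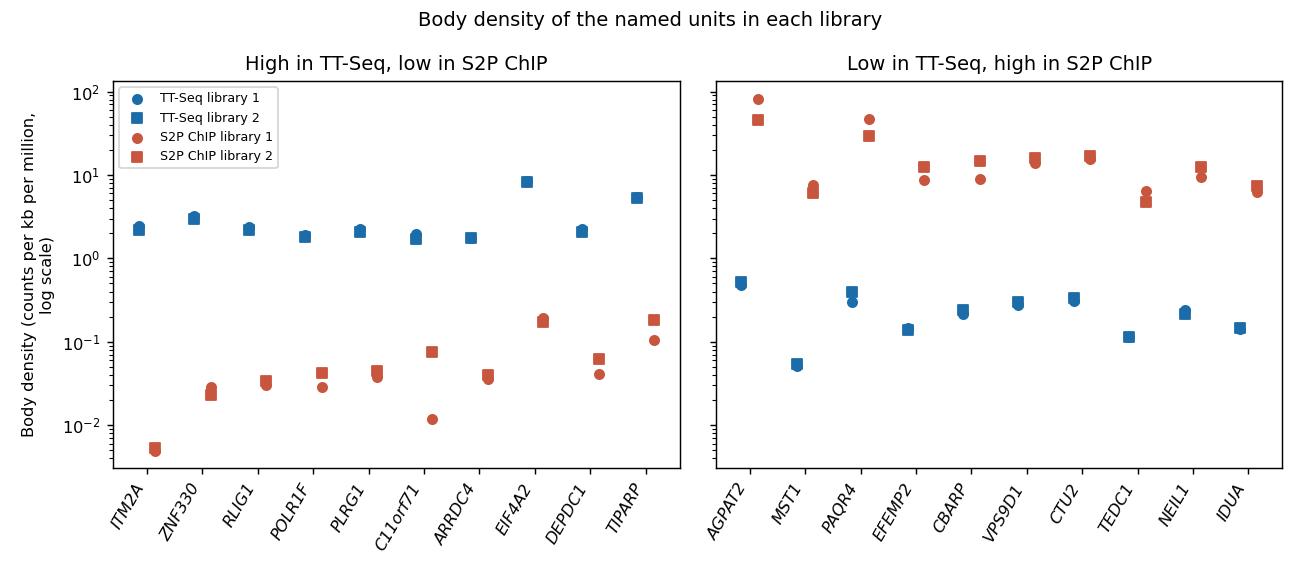
Body density (log scale) of the 10 named mRNA units high in TT-Seq and low in S2P ChIP (left) and the 10 with the opposite pattern (right), TT-Seq in blue left of S2P ChIP in red, 1 symbol per library. The 2 libraries of an assay lie close together in most units, and the widest gaps are in S2P ChIP, as for C11orf71 at 0.0118 and 0.0757 and AGPAT2 at 82.3 and 45.8.

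Bodies high in both assays were led by EGFL7, a secreted vascular factor that hosts a microRNA, with 10.1 and 11.3 in TT-Seq and 143 and 78.0 in S2P ChIP, and included a ribosomal protein gene and an elongation factor of translation. RPL13 had 9.2 and 8.79 in TT-Seq and 33.4 and 19.9 in S2P ChIP. EEF2 had 17.6 and 18.4 in TT-Seq and 22.7 and 24 in S2P ChIP, a log2 ratio of -0.60 (edgeR quasi-likelihood, adjusted p = 0.003), and it missed the threshold without TT-Seq library 1 (-0.56, adjusted p = 0.0599). In such a fit the lone TT-Seq library is assumed to vary like the S2P libraries, which alone give the spread. Ribosomal protein genes have near-identical copies and are uncertain, as no source used here gives the authors' treatment of reads that match several places.

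Readouts that did not choose the sets also separated them. The median unit length was 67.2 kb in the set high in TT-Seq and 17.4 kb in the set low in TT-Seq, against 44.2 kb in all mRNA units. The first set had a median of 11 other units within 1 Mb and the second 54, against 24. Bodies low in both assays had 14 other units and a median length of 50 kb, and bodies high in both had 44 and 27.9 kb. In N20 ChIP the median percentile of the first set was 11.3 and of the second 88.3. In Total RNA-Frag-Seq, which measures sheared RNA without purification, the medians were at percentiles 74 and 26. These percentiles were largely set by the choice of units, since N20 ChIP ranks bodies much as S2P ChIP does and total RNA much as TT-Seq does. In bodies low in both assays the median N20 percentile was 13.9, and in bodies high in both 87.4. Neighbours and N20 ChIP thus went with the level of S2P ChIP, also where TT-Seq had the same level.

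The chromosomes of the 2 sets differed as well. Chromosome 19 held 1 of 284 units high in TT-Seq and low in S2P ChIP and 84 of 451 with the opposite pattern, of 540 mRNA units. Chromosome 16 held 0 and 63 of 349, chromosome 17 held 0 and 55 of 464, and chromosome 22 held 1 and 23 of 193. On chromosome 13 the counts were 10 and 0 of 141, and on the X chromosome 11 and 4 of 232. The relation within a chromosome ranged widely. On chromosome 19 rho in bodies was 0.35 to 0.409 in the 4 library pairs, and on chromosome 16 it was -0.148 to -0.119.

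Signal around a unit moved with its S2P ChIP and hardly with its TT-Seq. Across mRNA units the S2P density of bins far from any unit but within 1 Mb had a rho of -0.112 with TT-Seq and 0.715 with S2P ChIP in bodies. The number of units within 1 Mb gave -0.136 and 0.656. Units were ranked by that density and cut into 5 groups of about 1531 each. In the lowest group the median body densities were 1.13 and 1.1 in TT-Seq and 0.207 and 0.192 in S2P ChIP, and in the highest group 0.872 and 0.904 in TT-Seq and 2.61 and 2.74 in S2P ChIP. Within the lowest group rho was 0.298 to 0.343, and within the highest 0.002 to 0.051. The lowest group held 184 of the 284 units high in TT-Seq and low in S2P ChIP and 0 of the 451 opposite ones, and the highest held 2 and 264. The part of these surroundings in the sets was not tested.

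Length ran the opposite way in the 2 assays. Units under 10 kb had median body densities of 0.658 and 0.657 in TT-Seq and 1.95 and 2.17 in S2P ChIP. Units of 100 kb and over had 1.15 and 1.17 in TT-Seq and 0.346 and 0.324 in S2P ChIP. Unit length had a rho of 0.188 with TT-Seq and -0.384 with S2P ChIP. Within length classes rho between the assays was 0.151 to 0.202 under 10 kb, 0.044 to 0.094 at 25 to 50 kb, and 0.187 to 0.268 at 100 kb and over.

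**Figure D4:**
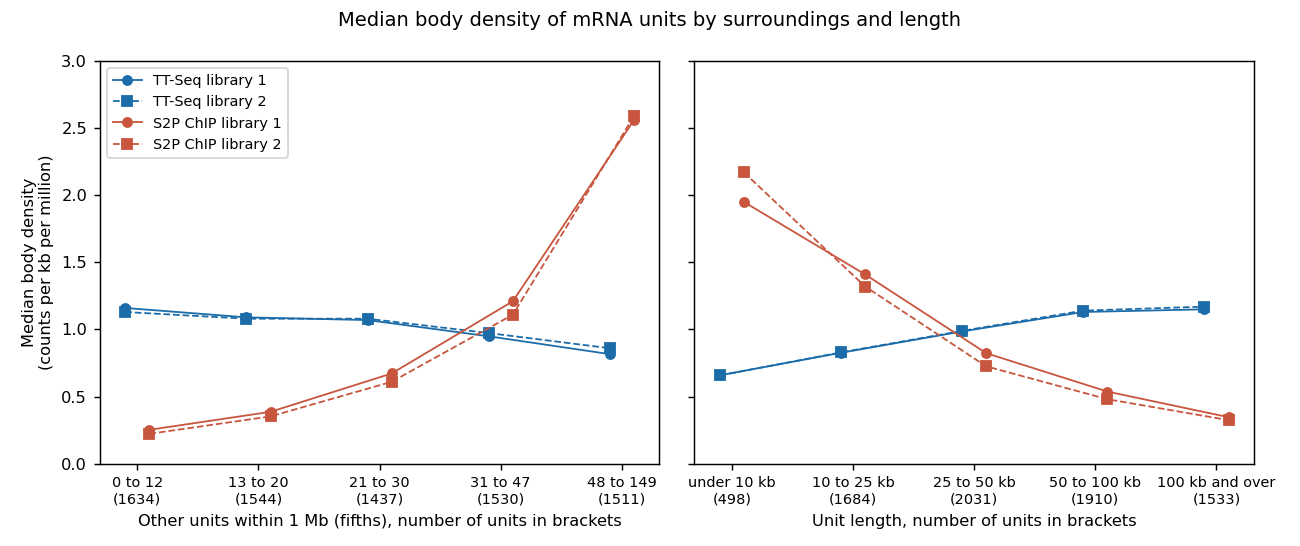
Median body density of mRNA units in TT-Seq (blue) and S2P ChIP (red), 1 line per library, by the number of other units within 1 Mb (left, in 5 groups) and by unit length (right). S2P ChIP goes up from 0.252 and 0.222 to 2.56 and 2.59 across the groups while TT-Seq stays between 0.816 and 1.16, and with length the 2 assays cross.

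Overlap on the other strand marked a share of the second set. TT-Seq on the other strand exceeded that on the unit's own strand in 0 of 284 bodies of the first set and in 96 of 451 (21.3%) of the second, against 301 of 7656 (3.93%) in the class. When both strands were summed, 348 of the 451 were still at or below the 25th percentile of TT-Seq. No other unit came within 1 kb of 43 units of the first set (15.1%) and 63 of the second (14%), against 14.9% in the class.

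In the last 5 kb TT-Seq was higher than S2P ChIP in 39.3% of all 12973 units and lower in 38.5% (5100 and 4996, edgeR quasi-likelihood at an adjusted p of 0.05). A call in either direction was made in 77.8%. In the mRNA class 39.9% were higher and 39.1% lower. The first set had a median log2 of 2.77 and the second of -2.76, a direction largely set by the choice of units, since the last 5 kb are part of the body. These calls depend on where the bulk of units is set: TMM scaling put the median log2 of all units at 0.03, and library totals alone at -1.34, with 2730 units higher and 7754 lower. Log2 ratios in this window are therefore given relative to the median unit. The folds given below as at least a value are on library totals instead and are not relative to it.

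The lowest ratios in the last 5 kb were sought among called mRNA class units with a symbol and a mean of at least 50 counts. Those found had a strong ChIP signal in that window. AGPAT2 had 0.107 and 0.16 in TT-Seq and 148 and 47.0 in S2P ChIP there (log2 -8.11), the ubiquitin ligase gene RNF216 0.0493 and 0.0505 against 33.6 and 28.1 (-7.90), and ARVCF, a catenin gene, 0.116 and 0.151 against 61.7 and 91.6 (-7.81). PCGF2, a Polycomb gene, had 0.0551 and 0.0589 in TT-Seq and 11.1 and 15.1 in S2P ChIP (-6.48). In these 4 genes another unit covers 100% of the window. MYBBP1A, a nucleolar regulator gene, had 0.142 and 0.132 in TT-Seq and 29.2 and 26.8 in S2P ChIP (-6.31) with no other unit in the window. Each was called by the edgeR quasi-likelihood test, with adjusted p of 3.62e-06 in AGPAT2 and 1.12e-06 in MYBBP1A.

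At the other extreme, 23 mRNA units had no S2P count at all in the last 5 kb in either library, 21 of them with at least 50 TT-Seq counts over both libraries. None of the 23 was also without N20 ChIP counts, but these were few in the members named below. They were 0 and 6 in ASAH2B, 2 and 2 in ANAPC1, 4 and 4 in SLC25A46 and 2 and 8 in VCF2. Their N20 densities, at most 0.0685, were below the means of bins far from units, 0.2174 and 0.2114. ASAH2B had 163 and 147 TT-Seq counts there, which is at least 39.8-fold over the density that 6 S2P counts over both libraries would give. That floor is 3 counts doubled, because every deposited ChIP count is even. The cell cycle ubiquitin ligase subunit gene ANAPC1 had 128 and 147 TT-Seq counts (at least 35.3-fold higher), the mitochondrial carrier family gene SLC25A46 148 and 112 (at least 33.4-fold higher) and VCF2 121 and 95 (at least 27.8-fold higher). C8orf88 had 430 and 415 TT-Seq counts against 0 and 2 S2P counts. ASAH2B and ANAPC1 have near-identical copies in the genome, so their values are uncertain.

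TT-Seq was lower at the end than upstream in most units, and S2P ChIP was split. In 10245 units of at least 11 kb the last 5 kb were compared with the body upstream of them within each library. TT-Seq was lower in the last 5 kb in 75.1% of units and higher in 5.5% (7697 and 563), while S2P ChIP was lower in 37.9% and higher in 38.2% (3879 and 3909, median log2 -0.01; edgeR quasi-likelihood at an adjusted p of 0.05). In the mRNA class the median log2 of end over upstream was -1.51 in TT-Seq and 0.27 in S2P ChIP, over 7029 units. The difference between the assays was itself tested, and 67.1% of units were lower and 10.9% higher in TT-Seq than in S2P ChIP (6873 and 1116), with a median of -1.87 in the mRNA class. Without TT-Seq library 1 the count of higher units was 707.

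TT-Seq fell and S2P ChIP rose towards the end in 2134 of the 7029 mRNA units (30.4%), and both fell in 1805 (25.7%). TT-Seq rose and S2P ChIP fell in 64 (0.911%), and both rose in 299 (4.25%). S2P ChIP was above the upstream body in the median of the mRNA class only: its median log2 was -0.71 in lincRNA, -0.51 in eRNA, -0.78 in asRNA, -0.53 in conRNA, -0.91 in uaRNA, -0.55 in sincRNA, -0.63 in unclassified and -0.33 in other annotated units. TT-Seq was below it in all classes, with medians from -2.20 in unclassified to -1.04 in sincRNA units. In the 5142 mRNA units with no other unit in the last 5 kb the medians were -1.37 in TT-Seq and 0.16 in S2P ChIP, and in the 1887 with one -1.97 and 0.61. Of all 1533 units of this length that no other unit approached within 1 kb, 57.2% were lower and 15.5% higher in the test of the difference.

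The mean profile of 1021 such isolated mRNA units shows where the mean signals of the 2 assays part. A median of end over upstream is not given for these 1021 units alone. Over the 1533 isolated units of all classes the median log2 was -0.02 in S2P ChIP and -1.01 in TT-Seq. In the 5142 mRNA units with no other unit in the last 5 kb it was 0.16 in S2P ChIP and -1.37 in TT-Seq. TT-Seq averaged 0.851 and 0.829 from -10 to -8 kb of the 3' end, and S2P ChIP 0.999 and 1.03. From -5 to -3 kb TT-Seq averaged 0.673 and 0.636, and S2P ChIP averaged 1.39 and 1.65 and reached its highest 1 kb mean, at -3.6 kb in both libraries. From -2 kb to the end TT-Seq averaged 0.258 and 0.254 and S2P ChIP 1.24 and 1.4. In the first 2 kb past the end TT-Seq averaged 0.0437 and 0.0456 and S2P ChIP 0.774 and 0.834, and from 5 to 10 kb past it 0.144 and 0.145 in TT-Seq and 0.548 and 0.535 in S2P ChIP. The unit's end was itself placed by the authors from TT-Seq, so the low TT-Seq just past it is not independent of how the end was placed.

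**Figure D5:**
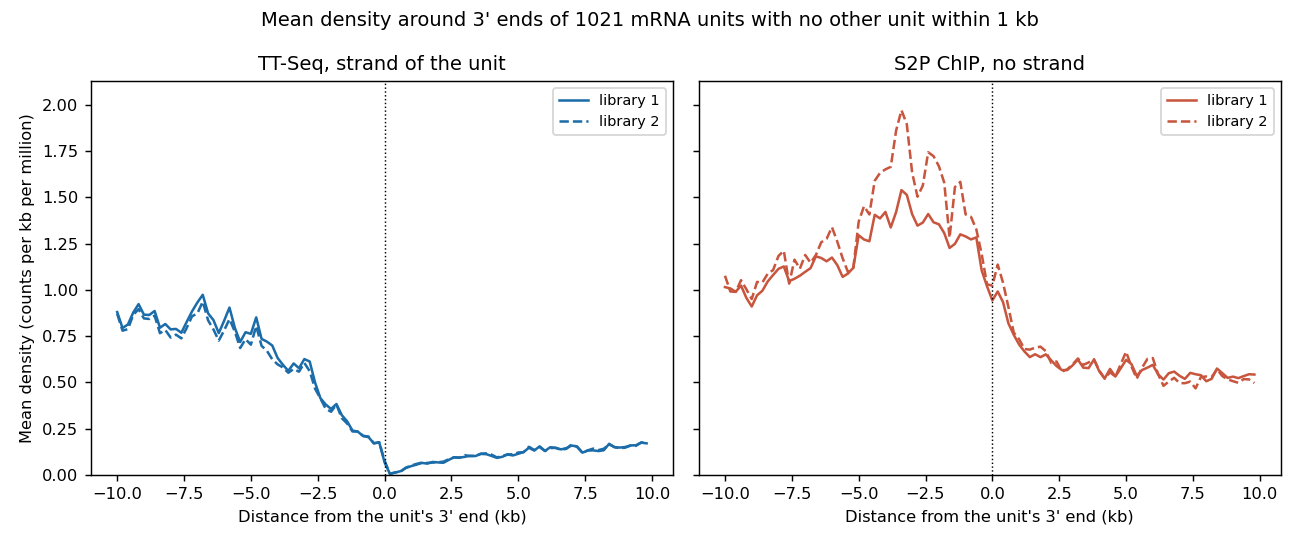
Mean density from 10 kb before to 10 kb after the 3' end of 1021 mRNA class units of at least 11 kb with no other unit within 1 kb, TT-Seq on the strand of the unit (left) and S2P ChIP (right), 1 line per library. TT-Seq declines over the last 5 kb to near 0 at the end, where S2P ChIP is still above its level further downstream, after its maximum at -3.6 kb.

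Single genes show the divergence at its widest. SMAD5, a transcription factor of BMP signalling in an isolated unit, had 2.19 and 2.15 in TT-Seq and 0.187 and 0.193 in S2P ChIP upstream, and 0.134 and 0.0897 in TT-Seq and 3.82 and 6.16 in S2P ChIP in the last 5 kb. TT-Seq was thus high where the ChIP was low and low where it was high (difference in log2 of -8.96, SE 0.34, edgeR quasi-likelihood adjusted p = 1.9e-06). Sheared total RNA of SMAD5 was also lower in that window, at 0.0788 and 0.132 against 1.63 and 1.57 upstream. Whether the window lies past the end of the mature mRNA was not tested, here or in the genes below. ZRANB2, a splicing regulator, had 6.58 and 6.09 in TT-Seq and 0.0333 and 0.0343 in S2P ChIP upstream, and 2.1 and 1.82 in TT-Seq and 6.32 and 6.8 in S2P ChIP in the last 5 kb (-9.29). No other unit lies in that window of ZRANB2, and the next unit begins 1.44 kb past its end.

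EZH2, the methyltransferase of Polycomb repressive complex 2, had 3.58 and 3.64 in TT-Seq and 0.745 and 1.04 in S2P ChIP upstream, and 0.0813 and 0.0645 in TT-Seq and 10.5 and 10.0 in S2P ChIP at the end (-9.17). RNF216 (-9.43), the stress kinase gene MAP3K4 (-9.25) and the chaperone gene HSP90AB1 (-8.59) had the same pattern. In these 4 genes another unit covers 100% of the last 5 kb. The 6 highest differences were taken among called units with a symbol and a mean of at least 50 counts. They were those of TBC1D32 and RPGRIP1L, both genes of cilia, the long non-coding RNA gene NIHCOLE, XNDC1N, ANAPC1 and PPP2R5E, a regulatory subunit gene of protein phosphatase 2A. All 6 had 0 S2P counts in the last 5 kb in both libraries. TT-Seq there was at least 77.5-fold higher in NIHCOLE (302 and 301 counts), at least 17.5-fold in TBC1D32, 15.2-fold in PPP2R5E and 11.2-fold in RPGRIP1L. These folds are on library totals, against the same floor of 6 S2P counts over both libraries.

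Most gene lists had units on both sides; in very long genes all were on one. Counts below are of units called higher and lower in bodies, beside 42.7% and 43.6% of all units and 51.5% and 37.1% of the mRNA class. Of 52 cytosolic ribosomal protein units 29 were higher and 17 lower, with a median log2 of 0.84; their median densities were 5.11 in TT-Seq and 3.21 in S2P ChIP. RPL5 had 8.59 and 7.68 in TT-Seq and 0.456 and 0.294 in S2P ChIP (4.21), and RPL36 had 2.78 and 2.64 in TT-Seq and 30.1 and 58.6 in S2P ChIP (-4.27). Both are wholly overlapped by units on the other strand, where TT-Seq had 0.472 in RPL5 and 2.42 in RPL36. The RPL36 unit is unclassified and 19.5 kb long. Of 17 snoRNA host units 8 were higher and 3 lower (median 0.95). NCL, the nucleolin gene, had 23 and 21 in TT-Seq and 3.18 and 2.31 in S2P ChIP (2.78). HSPA8, a chaperone gene, had 10.0 and 9.2 against 1.92 and 0.389 (2.82), a call that was lost without either TT-Seq library, with the S2P libraries alone giving the spread, while the log2 was 2.78 and 2.9 (adjusted p = 0.196 and 0.19).

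Of 44 units of the elongation and termination machinery 23 were higher and 15 lower (median 0.47). ELL2, a subunit of the super elongation complex, was in the set high in TT-Seq, with 2.44 and 2.37 in TT-Seq and 0.202 and 0.175 in S2P ChIP (3.46). CPSF1, of the cleavage and polyadenylation complex, had 1.23 and 1.29 in TT-Seq and 12 and 15.7 in S2P ChIP (-3.68), and NELFB, of the pausing factor NELF, 0.614 and 0.711 against 5.35 and 6.09 (-3.33). Of 30 erythroid units 13 were higher and 12 lower (median -0.01, whose sign turns without TMM). LYL1, a haematopoietic transcription factor gene on a unit that the authors class as eRNA, was lower in TT-Seq (log2 -3.70) although its TT-Seq density was 6.38 and 6.31.

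Of 14 glycolysis units 7 were higher and 3 lower (median 0.41). The lactate dehydrogenase genes were high in TT-Seq, LDHB with 4.07 and 3.89 against 0.186 and 0.0952 (4.57) and LDHA with 12 and 11.7 against 1.24 and 0.944 (3.22), whereas the phosphofructokinase gene PFKL had 0.8 and 0.864 in TT-Seq and 10.7 and 11.1 in S2P ChIP (-3.93). Of 12 units of long-lived abundant mRNAs 7 were higher and 4 lower (median 1.00), from NPM1, nucleophosmin, at 3.24 to FLNA, filamin, at -3.87. Of 24 units of short-lived regulators and immediate early genes 7 were higher and 10 lower (median 0.30). MAFK had 0.588 and 0.701 in TT-Seq and 6.14 and 7.7 in S2P ChIP (-3.65). SOCS1 stood at -3.15 on a unit classed as asRNA, and its call was lost without either TT-Seq library, again with the spread from S2P ChIP alone, at log2 ratios of -3.09 and -3.21 (adjusted p = 0.101 and 0.0925).

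All 5 units of very long genes were higher in TT-Seq (median 2.39). The list holds 23 genes, and the rest had no unit with their symbol. A gene without TT-Seq signal has no unit and could not count as lower. EXOC4, of the exocyst, 636 kb long, had 1.61 and 1.63 in TT-Seq and 0.11 and 0.104 in S2P ChIP (3.70), and ZFPM2, a GATA cofactor gene of 441 kb, 1.8 and 1.78 against 0.0892 and 0.086 (4.13). The list holds genes chosen for their length, which itself ran with the ratio in the whole class. Of 306 ZNF units 160 were higher and 93 lower (median 0.50, as in the mRNA class), from ZNF330 at 6.65 to ZNF629 at -4.93. The ZNF629 unit is wholly overlapped by units on the other strand, where TT-Seq had 1.2, against 0.644 and 0.613 on its own. Of 11 histone units 4 were higher and 2 lower (median -0.39), and of 6 markers of other cell types 1 was higher and 4 lower (median -1.19). Of 6 nuclear long non-coding RNA units 4 were higher and 1 lower (median 1.04).

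Wide ratios in both directions were also found among lincRNA and eRNA units. A lincRNA unit at chr6:26956314-26987248 had 0.404 and 0.347 in TT-Seq and 0.00547 and 0.00584 in S2P ChIP (log2 5.84). Its S2P values rest on 12 and 6 counts and were below the means of bins far from units, 0.138 and 0.1208. BAIAP2-DT, another lincRNA, had 0.148 and 0.138 in TT-Seq and 5.11 and 8.1 in S2P ChIP (-5.75). MALAT1, an abundant RNA of nuclear speckles classed as lincRNA, had 224 and 203 in TT-Seq and 8.53 and 5.29 in S2P ChIP (log2 4.74). MIR3677HG, a microRNA host RNA, had 0.239 and 0.245 in TT-Seq and 7.73 and 8.93 in S2P ChIP (-5.32). An eRNA unit at chr6:67867745-67890164 had 45.4 and 46.9 in TT-Seq and 0.459 and 0.586 in S2P ChIP (6.25). Another at chr22:19715279-19725631 had 0.207 and 0.218 in TT-Seq and 80.4 and 99.2 in S2P ChIP (-8.95); it is covered by units on the other strand, where TT-Seq had 5.04, and S2P ChIP in bins far from units within 1 Mb of it was 2.2, against a median of 0.24 around mRNA units. The eRNA unit at chr9:136614574-136622452 had 0.262 and 0.353 in TT-Seq and 19.7 and 68.5 in S2P ChIP (-7.40), and its call was lost without either TT-Seq library at log2 ratios of -7.2 and -7.63 (edgeR quasi-likelihood, adjusted p = 0.0635 and 0.0588, with the spread from S2P ChIP alone).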

How the data were processed

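The deposited values are whole-number counts. Per the file headers and the labels, the authors counted RNA reads by strand and ChIP reads without strand in 15441419 bins of 200 bp, and they deposited 21874 units with a class each, segmented from TT-Seq with STAN per the deposited description. The build is hg38 (GRCh38), and the tools named, per the submitters' processing notes, are Bowtie2 2.1.0, STAR 2.3.0 and SAMtools. Every nonzero ChIP count in the deposited bins is even, which is not so for RNA, so halved S2P counts were an alternative. Counts were summed over bins whose midpoint lies in the body or in the last 5 kb. The depth per library was 34470652 to 73660126 binned counts; at an end with 0 counts the floor is 3 counts over both libraries, taken as 6 deposited counts because they are even, for counting error only.

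Ratios were tested with edgeR 4.0.16 in R 4.3.3 (filterByExpr, which kept every region, TMM, glmQLFit with robust estimation, glmQLFTest, Benjamini-Hochberg over all units at 0.05). The end against the upstream body was tested as an interaction of region with assay, with library as a block and library totals as offset. The biological coefficient of variation was 0.1417 in bodies. The fit was tested on simulated data. Alternatives were DESeq2 1.42.0, other scalings, windows and percentiles, units without neighbours, both strands of TT-Seq, local ChIP background, a replicate block and leaving out each library. Halved counts, both strands, the local and mean ChIP background and the splits by length and promoter GC were chosen after seeing the data.

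Symbols came from RefSeq spans and start sites on GRCh38.p14: a unit took a symbol at a Jaccard overlap of 0.5, or where it covered 0.8 of the gene and began within 3 kb of its start. In this way 8481 of 12973 units were named, and 720 mRNA units hold more than 1 coding gene. The text names the 10 most extreme units of each discordant set, the 5 highest in both, the 6 and 5 most extreme in the 2 end comparisons, 3 members of each list and 2 eRNA and lincRNA units in each direction; of these, some are given in part and some are not reported here. The deposited exon, intron and rate tables were not used here, and the other libraries only as descriptions. Members, lists and tests were chosen with earlier results of these data known. Figures were drawn with matplotlib 3.10.9.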

Additional observations from a re-analysis of the deposited data

How the results depend on the processing

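Of the bodies, 5534 were higher and 5650 lower in TT-Seq; with library totals in place of TMM, size factors of DESeq2, DESeq2's own test, halved S2P counts or a body from 2 kb the counts stayed within 1.5 times. Among units with no other unit within 1 kb, which are fewer, 810 and 788 of 1882 bodies, 782 and 731 last windows and 238 and 877 of 1533 units in the test of end against upstream were called higher and lower. In the last 5 kb, totals without TMM gave 2730 higher and 7754 lower. Leaving out 1 library gave 4912 to 6158 higher and 4963 to 6166 lower bodies, 4231 to 5725 and 4101 to 5623 in the last 5 kb, and 707 to 1425 and 5840 to 7449 for end against upstream, with 707 without TT-Seq library 1. The rank correlation in mRNA bodies averaged 0.028 over the library pairs. It was 0.05 in units without neighbours, 0.142 with S2P ChIP divided by the density of distant bins within 1 Mb and 0.099 with TT-Seq of both strands, and 0.01 to 0.047 with a library left out; in the last 5 kb it was 0.298, 0.226 without neighbours, and 0.281 to 0.316 with a library left out. The discordant sets of 284 and 451 units became 1072 and 1218 at the 60th and 40th percentiles, 49 and 65 without neighbours, and 490 and 516 with percentiles over all classes, of which 404 and 216 are mRNA units (260 and 212 shared with the sets of 284 and 451); with a library left out they held 287 to 349 and 461 to 501. Among the named units, 718 of their values in bodies under an alternative kept direction and call, 10 lost the call and 1 turned: H1-2, a histone gene, was at 1.33 and fell to -0.88 with the body from 2 kb (edgeR quasi-likelihood, adjusted p = 0.0309). The 110 values in the last 5 kb and the 110 for end against upstream were all kept.

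The labels number both assays 1 and 2 without saying that a number marks a shared culture, and the deviations of same-numbered libraries had a correlation of 0.077. With the replicate number as a block 5591 bodies were higher and 5648 lower, 5144 and 4999 in the last 5 kb, and 1141 and 6884 for end against upstream; HSPA8 (3.15, edgeR adjusted p = 0.168) and SOCS1 (-2.92, adjusted p = 0.123) were no longer called. The planned background from the median of distant bins was 0 and changed nothing, and the filter on low counts removed no region. Depth limits S2P ChIP in quiet regions, where 513 mRNA bodies lay below the mean of distant bins in both libraries, and where ratios rest on a few even counts. No scale shared by the 2 assays was used, so ratios rank units and give no amount of RNA per polymerase.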

Other observations

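Of the 284 mRNA bodies high in TT-Seq and low in S2P ChIP, 98 were also in the set of 252 formed with S2P ChIP divided by its local density in distant bins, and of the 451 opposite ones 239 were also in the set of 329 formed in that way. These shares are of sets chosen from the same libraries, and the alternative was chosen after seeing the data.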
